A study of Homo sapiens with 32 samples.

Results

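Cytosolic ribosomal proteins are the protein subunits of the ribosomes that translate nuclear messenger RNAs. The genes were chosen by name, as every row of the count table whose Ensembl identifier maps to a protein-coding gene with a symbol of the form RPL, RPS or RPLP followed by a number, with at most a closing A, X or L, or to RPSA. This gave 81 of the 17788 genes in the table, which were all 81 such genes of GENCODE release 44. Of these, 49 belonged to the large (60S) subunit, P proteins included, and 32 to the small (40S) subunit. The naming rule uses no measured value, but the family was chosen with earlier results of these data known.

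The libraries came from MCF10A cells, an immortalized, non-tumorigenic human mammary epithelial cell line. Each was made from 1 of 4 single-cell-derived clones, namely clones 27 and 2 with wild-type JUNB (WT) and clones 1 and 65 with an extended CRISPR/Cas9 deletion in JUNB (mut, labelled as knock-out). The study describes a smaller JUNB polypeptide that remained at a low level in mut clones. JUNB is a subunit of the transcription factor AP-1. Cells of each clone received solvent (albumin in buffered saline, for 72 h by the study's methods and time 0 by the labels) or 5 ng/ml of the cytokine TGFβ1 for 6, 24 or 72 h, which drives epithelial cells towards a mesenchymal state. There were 2 replications per clone and treatment, so that each of the 8 groups had 4 libraries. Libraries of 1 clone and 1 replication are called a series and written as clone and replication, such as 27-1. Each genotype was carried by 2 clones, so differences between single clones and effects of the JUNB deletion cannot be told apart beyond what 2 against 2 clones allow.

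Growing cells make ribosomal proteins in equal numbers with ribosomal RNA, and their messengers carry a terminal oligopyrimidine (TOP) tract, a cytidine followed by a run of pyrimidines directly at the 5′ end. This tract lets the kinase mTOR and the protein LARP1 control the translation and stability of the messengers as a group. Their promoters are known for initiator and ETS-type sites rather than for tissue-restricted elements. Because the human genome holds many processed copies of these genes, reads from them are hard to assign to a single place.

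The start regions of these genes were compared at the listed start base. The windows of 30 bases below run from 15 bases before to 15 bases from a RefSeq start (GRCh38.p14), on the strand of the gene. Where a gene had several listed starts, that with the longest pyrimidine run opening with C was taken. They are shown for the genes on which the comparisons turn, and capitals mark an uninterrupted pyrimidine run that opens with C at the first base and holds at least 5 bases.
RPS6 (chr9:19380222-19380251, minus strand): aagcggaagttggccCTCTTTTCCgtggcg
RPS23 (chr5:82278340-82278369, minus strand): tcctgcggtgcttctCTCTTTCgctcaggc
RPL13A (chr19:49487593-49487622, plus strand): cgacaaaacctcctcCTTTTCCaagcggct
RPL22 (chr1:6199581-6199610, minus strand): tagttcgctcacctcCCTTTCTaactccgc
RPL12 (chr9:127451392-127451421, minus strand): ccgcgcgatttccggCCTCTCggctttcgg
RPS18 (chr6:33272060-33272089, plus strand): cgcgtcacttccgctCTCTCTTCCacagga
RPS27 (chr1:153990747-153990776, plus strand): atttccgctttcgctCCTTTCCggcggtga
RPS27L (chr15:63157463-63157492, minus strand): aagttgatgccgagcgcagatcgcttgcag
RPS29 (chr14:49598696-49598725, minus strand): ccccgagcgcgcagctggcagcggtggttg

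A start of this TOP type was present in 46 of the 64 members with a RefSeq entry (71.9%), against 5.14% of the 27305 genes in the table of start regions. A gene counted if any of its listed starts was of this type. RPS27L, a paralog of RPS27, and RPS29 had no such run at the listed start, while RPS27 itself had 1 of 7 bases. In the 300 bases from 250 before to 50 after the start, read on both strands, the ETS site CCGGAAGT occurred in 10 members (15.6%, against 4.95% of all genes) and the core AAGATGGC of the factor YY1 in 6 (9.38%, against 3.52%). The AP-1 site TGACTCA, to which JUNB-containing dimers bind, was found in 1 member (1.56%, against 6.05%) and the cyclic AMP element TGACGTCA in 3 (4.69%, against 2.25%). The E-box CACGTG matched 4 members (6.25%, against 8.77%) and the sequence TATAAA 6 (9.38%, against 14.0%). These are matches of letters, and no binding was measured.

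Counts in the 81 genes made up between 1.06% and 2.02% of a library, out of library totals of 39702412 to 54651906 counts. Highest of all was RPL8, a protein of the large subunit next to the peptidyl transferase centre, at 1048 CPM on average (CPM, counts scaled to an equal library total), and 6 genes averaged above 500 CPM, among them RPS6 (863 CPM), RPL3 (861 CPM), RPL15 (806 CPM), RPS4X (630 CPM) and RPS2 (593 CPM). Another 41 members lay between 100 and 500 CPM, while RPS27 averaged 10.6 CPM, RPS10 3.63 CPM and RPL36A 2.54 CPM. Per kilobase of the MANE Select transcript, RPL8 again came first with 979 CPM per kb, followed by RPL3 with 665 and RPL29 with 653. Over the union of all annotated exons RPL8 had 485 CPM per kb, followed by RPS6 with 320 and RPL41 with 310, so that the ranks after RPL8 depend on the length used. Such levels are those of counts assigned to the gene itself. The table also lists 15 of the 1588 ribosomal protein pseudogenes annotated in GENCODE, and the processed pseudogene RPL13AP5 held 81.1% of the counts of RPL13A and RPL13AP5 together, RPL23P8 held 79.8% with RPL23, and RPL21P28 held 54.3% with RPL21. How reads that map to several places were treated is not given in the sources used here, so levels between members cannot be read as amounts of messenger.

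Paralogs known for restricted expression were at or near 0. RPL3L, the striated muscle form of RPL3, had 0 to 0.320 CPM, and RPL10L, the testis form of RPL10, had 0 to 0.0914 CPM, where 3 counts correspond to at most 0.0756 CPM. Both failed the filter on low counts, and the other 79 members passed it. RPL39L, a paralog of RPL39 best known from testis, was measured at 1.58 to 9.27 CPM, and RPS27L at 28.4 to 47.4 CPM, above RPS27. In all, 37 members overlap another gene of the table and 12 of them hold a small nucleolar RNA (snoRNA) gene in an intron. The kit keeps no strand, so that RPS29 (overlapped by LRR1), RPL22 (RNF207) and RPS27L (LACTB) could share reads with those genes.

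Mammary epithelial identity was checked with markers. The basal keratins KRT5 (3262 to 8158 CPM) and KRT17 (1059 to 4761 CPM) and the factor TP63 (64.7 to 152 CPM) were present in every library. So were KRT6A (1854 to 4789 CPM), ITGB4 (1552 to 4579 CPM) and LAMB3 (1105 to 5916 CPM). KRT14 ran from 181 to 2189 CPM and CDH1 from 147 to 599 CPM, and EPCAM was lower, at 9.23 to 82.7 CPM. ESR1 reached at most 1.22 CPM, the leukocyte genes PTPRC and CD3E at most 0.0498 CPM and the endothelial gene VWF at most 0.140 CPM. CD14 reached 2.29 to 28.1 CPM. JUNB itself was counted in mut libraries too, at 69.2 to 172 CPM in solvent against 89.7 to 117 CPM in WT, and counts over a whole gene do not show a deletion of part of it.

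The mean share of counts taken by the family was lower after 24 and 72 h of TGFβ1 than in solvent in both genotypes. It was higher in mut than in WT cells at each state. WT libraries in solvent had a share of 1.59% ± 0.147 (SD, n = 4). With TGFβ1 it was 1.57% ± 0.118 after 6 h, 1.38% ± 0.0937 after 24 h and 1.15% ± 0.0835 after 72 h. The 4 libraries at 72 h (1.06% to 1.26%) all lay below the 4 in solvent (1.40% to 1.76%). Mut libraries had 1.87% ± 0.0553 in solvent, followed by 1.96% ± 0.0923 after 6 h, 1.72% ± 0.131 after 24 h and 1.61% ± 0.108 after 72 h. Every mut library in solvent (1.79% to 1.92%) exceeded every WT library in solvent, and at 72 h the lowest mut library (1.52%) exceeded the highest WT library (1.26%). The 10 most abundant other genes took 4.30% to 9.43% of a library, and without them in the denominator the means at 72 h were 1.26% in WT and 1.71% in mut. In bulk samples, fewer messengers per cell and a larger total of other messengers cannot be told apart.

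**Figure D1:**
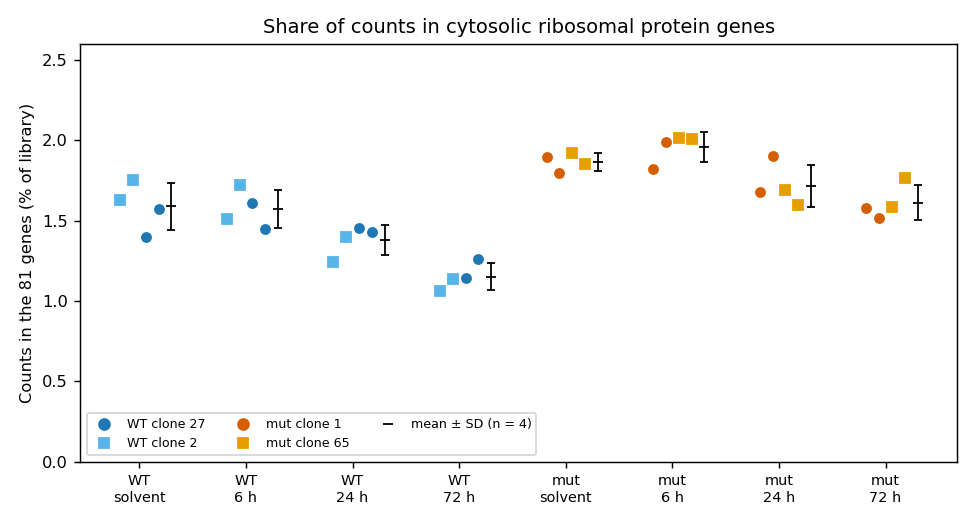
Percentage of each library's counts that fell in the 81 genes (vertical axis, from 0), by group (horizontal axis), with 1 point per library, colour and shape for the clone, and black bars for mean ± SD of 4 libraries. Mut libraries sit higher than WT libraries at each treatment state, and WT libraries fall to between 1.06% and 1.26% at 72 h.

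In WT cells, TGFβ1 was followed by lower levels of most ribosomal protein genes at 72 h. Of the 79 tested members, 57 fell and 0 rose (adjusted p under 0.05, limma-voom with library-size scaling). The count of lower genes among all 14865 tested was 38.4%, and that of the members 72.2%. The median log2 change was -0.39 over the members and -0.19 over all genes. With TMM composition factors, which centre the bulk of genes at no change, 33 members fell (against 23.3% of all genes) and the medians were -0.22 and -0.03. The 4 libraries at 72 h all lay below the 4 in solvent for 36 members and for 34.0% of all genes. The distance between the members' median and that of all genes was -0.20 in both scalings. These factors shift all genes nearly alike, so this distance stays the same by construction. At 6 h, 0 members were called, also with 0 members at an unadjusted p under 0.05 (lower in 11.9% of all genes), and edgeR and DESeq2 called 0 as well. At 24 h, 30 members fell, 38.0% of those tested and also 38.0% of all genes. Under TMM factors that count was 2 lower and 1 higher (23.2% of all genes lower), and the members' median turned from -0.17 to 0.01, so that no direction can be given for the family at 24 h.

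Genes of both subunits were among those that fell at 72 h, with 37 of 47 members of the large and 20 of 32 of the small subunit. The medians were -0.39 and -0.36. The largest fall was that of RPS29, a zinc-binding protein of the small subunit head. Its levels in the solvent series 2-1, 2-2, 27-1 and 27-2 were 24.8, 27.6, 18.2 and 19.4 CPM, and at 72 h 9.35, 12.2, 10.4 and 13.4 CPM. The groups did not overlap, and its log2 change was -0.97 ± 0.15 (SE, adjusted p = 3.6e-06).

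RPL13A, known outside the ribosome from the interferon-gamma-activated inhibitor of translation, was at 479, 481, 406 and 418 CPM in solvent in the same order of series, and at 262, 265, 240 and 280 CPM at 72 h. All series were lower at 72 h, and the log2 change was -0.77 ± 0.07 (adjusted p = 3.1e-09). With the counts of its pseudogenes added, which outnumber its own, the call held. RPS6, the substrate of the S6 kinases, was at 925, 962, 831 and 876 CPM in solvent and 569, 582, 517 and 597 CPM at 72 h, a log2 change of -0.67 ± 0.07 (adjusted p = 9.9e-09). RPS23, at the decoding centre, went from 277 to 321 CPM in solvent to 182 to 189 CPM at 72 h (-0.68 ± 0.06, adjusted p = 1.9e-09). Both showed all 4 values at 72 h below all 4 in solvent, in either clone.

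RPL22, an RNA-binding protein of the large subunit that is dispensable for translation, fell by 0.72 (SE 0.09), and RPL3, at the peptidyl transferase centre, by 0.70 (SE 0.08) on the log2 scale. RPL5 and RPL11, which form with 5S RNA the particle that binds MDM2, fell by 0.51 (SE 0.08) and 0.46 (SE 0.06). RPS4X, an X-linked small subunit protein, fell by 0.52 (SE 0.06), RPS19, mutated in Diamond-Blackfan anaemia, by 0.46 (SE 0.09), and RPSA, near the exit of the messenger channel, by 0.39 (SE 0.09). The stalk proteins RPLP0, RPLP1 and RPLP2, which recruit elongation factors, fell by 0.32, 0.36 and 0.32. RPL10, a large subunit protein that joins late, fell by 0.24 and RPL39, at the tunnel exit, by 0.28. Adjusted p-values of these genes in limma-voom ranged up to 0.043. Under TMM factors the calls of RPLP0, RPLP1, RPLP2, RPSA, RPL10 and RPL39 were lost.

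Members that passed no test at 72 h in WT were mostly those with few assigned counts. RPS18 had a log2 change of -0.07 (SE 0.24), RPS27 -0.07 (SE 0.24), RPL12 -0.16 (SE 0.21), RPL24 -0.01 (SE 0.18) and RPL31 -0.05 (SE 0.16). RPS10 was the only member above 0, at 0.07 (SE 0.20). Among the 47 members with a mean of at least 100 CPM over all libraries, 43 fell in WT at 72 h (91.5%, against 44.1% of the 2445 tested genes of that abundance). Of the 32 members below 100 CPM, 14 fell (43.8%, against 37.3% of the 12420 tested genes of that abundance). This limit was set after the values were seen, and the split is a description.

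**Figure D2:**
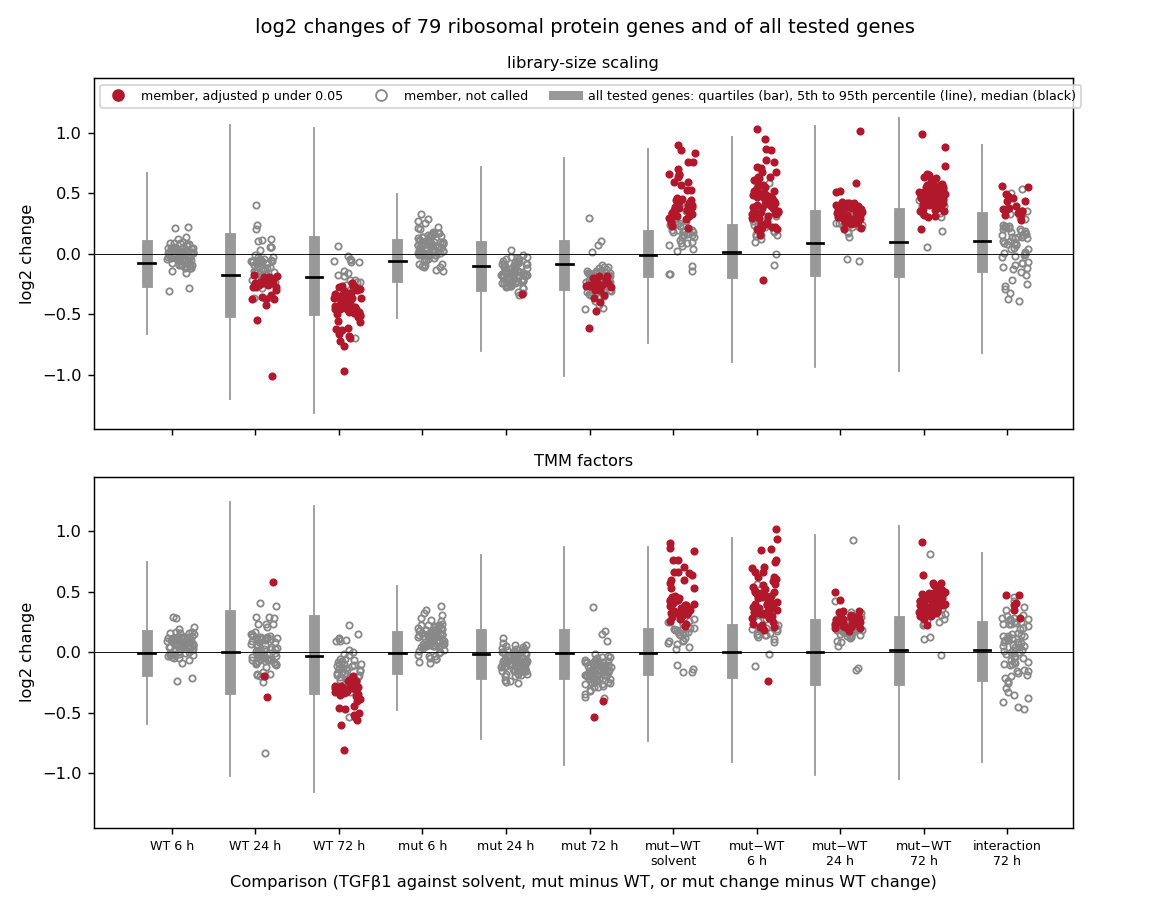
log2 change (vertical axis) in 11 comparisons (horizontal axis), with library-size scaling above and TMM factors below. Each circle is 1 of 79 members, red where called, and grey bars beside them give the quartiles and 5th to 95th percentile of all 14865 tested genes with their median in black. At 72 h in WT the members' median is -0.39 above and -0.22 below, and for mut minus WT in solvent it is 0.32 in both.

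The WT clones differed in the size of this change. Against the solvent library of the same series, the median log2 change of the 79 members at 72 h was -0.60 in 2-1 and -0.65 in 2-2, with 79 of 79 members lower in each, but -0.10 in 27-1 and -0.24 in 27-2, with 47 and 70 members lower. The medians of all genes were -0.18, -0.24, -0.17 and -0.15 in the same order. For the 47 abundant members the changes were -0.60, -0.65, -0.23 and -0.27, lower than those of abundant genes at large in each series (-0.10, -0.18, -0.13 and -0.11). For the 32 others they were -0.62, -0.68, 0.16 and -0.19. The value above 0 came from 27-1, where the solvent library was low for many of these members. RPL12, which binds near the stalk base, had 20.7 CPM in solvent 27-1 and 34.4 to 48.6 CPM in the other WT solvent libraries. RPS18 had 12.4 CPM there against 27.5 to 34.2 CPM, and RPS27 had 3.98 CPM against 8.20 to 11.2 CPM. Without the solvent library of 27-1 the count of members that fell in WT at 72 h was 65.

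**Figure D3:**
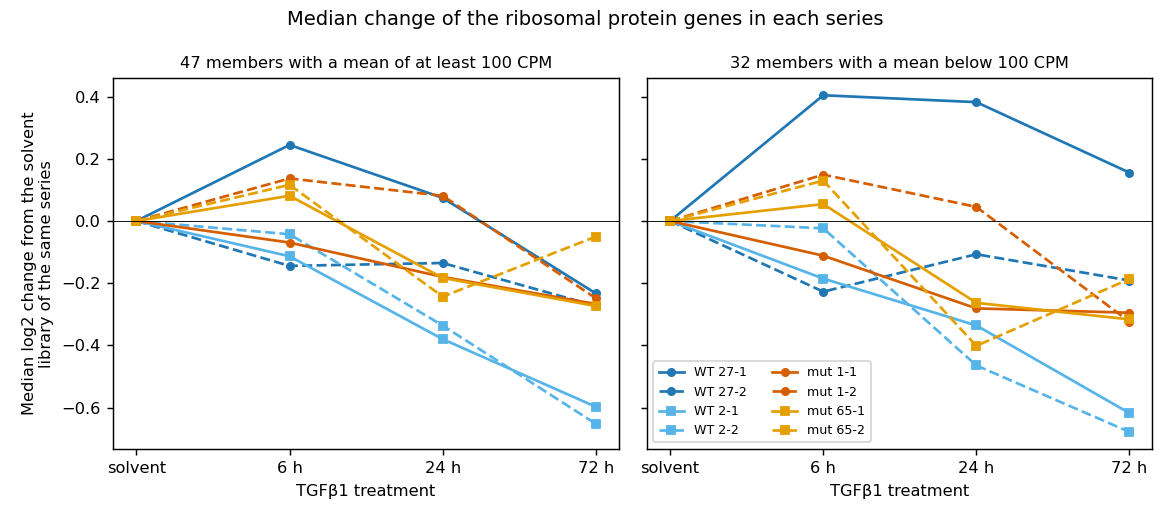
Median log2 change of member genes from the solvent library of the same series (vertical axis) at 6, 24 and 72 h (horizontal axis), for the 47 members with a mean of at least 100 CPM (left) and the 32 below (right), with 1 line per series. At 72 h the series of WT clone 2 reach -0.60 and -0.65 for the abundant members, and those of WT clone 27 reach -0.23 and -0.27.

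In mut cells, 0 members passed the test at 6 h (4 at an unadjusted p under 0.05, DESeq2 called 2 and edgeR 0, while 4.94% of all genes were lower). At 24 h only RPS29 fell (-0.33 ± 0.12 SE, adjusted p = 0.039, limma-voom, against 17.1% of all genes). At 72 h, 23 members fell and 0 rose, 29.1% of those tested against 16.3% of all genes, with medians of -0.24 and -0.09. Under TMM factors 2 members fell (9.91% of all genes), with medians of -0.16 and -0.01. For 50 members the 4 mut libraries at 72 h all lay below the 4 in solvent, and so did 15.9% of all genes. With the series as a block, which compares each treated library with its own solvent library, 9 members fell at 24 h (25.1% of all genes) and 47 at 72 h (22.9% of all genes). Leaving out single libraries moved the count at 72 h between 6 (without mut 72 h 1-2) and 33 (without mut 72 h 65-2), and that at 24 h between 0 and 12 (without mut 24 h 1-2). Leaving out mut solvent 1-1, 65-1 or 65-2, or mut 72 h 1-1 or 65-1, left between 8 and 13 members at 72 h.

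RPS29 again had the largest fall. It was at 34.3, 36.7, 31.7 and 34.5 CPM in the solvent series 1-1, 1-2, 65-1 and 65-2 and at 20.9, 20.6, 23.5 and 25.3 CPM at 72 h (-0.61 ± 0.12, adjusted p = 3.45e-04). All 4 series were lower at 72 h, and the groups did not overlap. RPL19, a large subunit protein that spans to the small subunit, went from 285 to 297 CPM to 202 to 216 CPM (-0.48 ± 0.13, adjusted p = 0.010), and RPS21 from 16.2 to 20.0 CPM to 13.3 to 14.9 CPM (-0.40 ± 0.14, adjusted p = 0.033). RPS29 and RPL19 were the 2 members that fell under TMM factors as well. In all, 22 of 79 members fell at 72 h in both genotypes, against 13.3% of all genes. The WT and mut comparisons share no library. RPS27L, at 33.9 to 41.3 CPM in solvent, was at 37.8 to 47.4 CPM at 72 h (0.10 ± 0.07, adjusted p = 0.32), and RPS10 had 0.29 ± 0.20 (adjusted p = 0.30), so that neither passed the test.

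**Figure D4:**
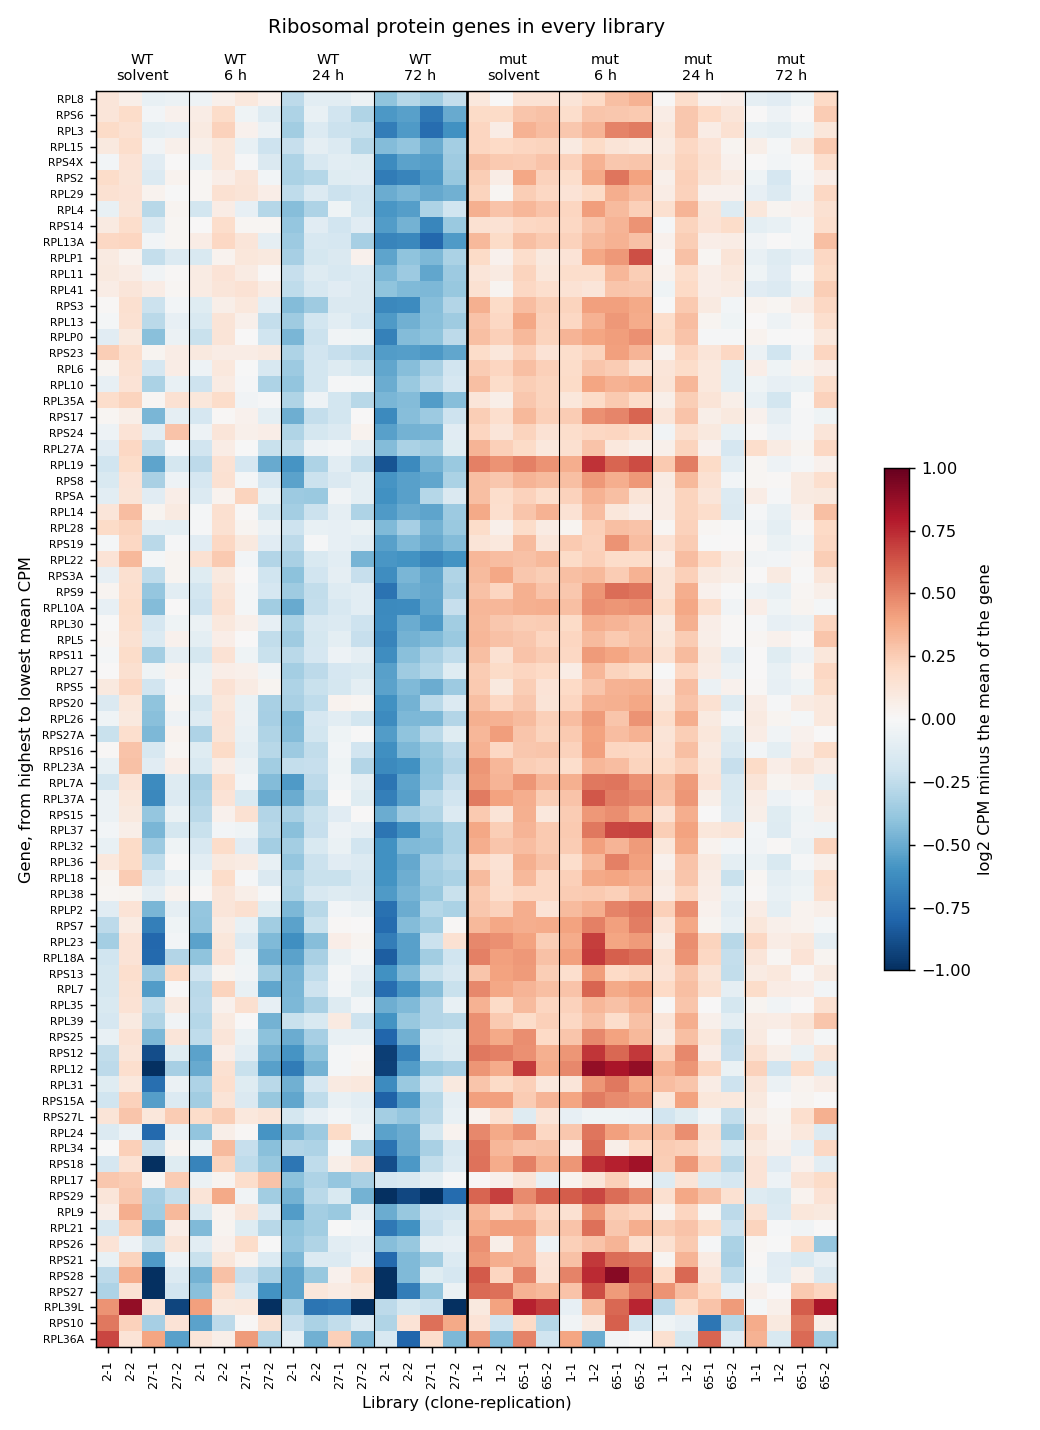
log2 CPM of each of the 79 tested members minus its own mean over the 32 libraries (colour, clipped at ±1), with genes from highest to lowest mean CPM down the vertical axis and libraries by group and series across. Columns of a group differ in blocks of genes, as in WT solvent 27-1, and WT 72 h is below the mean for nearly all rows.

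In solvent, most members stood higher in mut than in WT cells. Of 79 members, 44 were higher and 0 lower (55.7%, against 6.38% of all genes higher), with medians of 0.32 for the members and -0.01 for all genes. Scaling changed this comparison little, with 43 members higher under TMM factors (6.68% of all genes). For 46 members the 4 mut libraries all exceeded the 4 WT libraries (8.36% of all genes). The count rested in large part on a single library. Without WT solvent 27-1, 13 members were called, 7 of the 47 abundant and 6 of the 32 others, and the members' median was 0.23. Without mut solvent 1-1 the count was 29, and with the 2 replications of each clone summed it was 20. The 4 pairs of a mut and a WT clone gave medians of 0.42 and 0.39 against clone 27 and 0.22 and 0.19 against clone 2, for mut clones 1 and 65 respectively, with 67 to 77 of 79 members higher.

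The largest differences were seen in members with few assigned counts. RPS27 was at 8.20, 11.2, 3.98 and 8.88 CPM in WT (series 2-1, 2-2, 27-1 and 27-2) and at 15.004, 14.8, 12.9 and 12.7 CPM in mut (1-1, 1-2, 65-1 and 65-2), a log2 difference of 0.90 ± 0.21 (adjusted p = 0.0045). RPL12 was at 36.2, 48.6, 20.7 and 34.4 CPM in WT and at 59.0, 56.1, 70.3 and 56.2 CPM in mut (0.86 ± 0.19, adjusted p = 0.0029), and RPS18 at 12.4 to 34.2 CPM and 39.7 to 44.9 CPM (0.83 ± 0.22, adjusted p = 0.011). In each of the 3 genes the mut libraries lay above the WT libraries. Without WT solvent 27-1 the differences were 0.56, 0.62 and 0.49, with adjusted p-values (limma-voom) of 0.044, 0.026 and 0.094. Across the 79 genes the difference tended to be larger at lower mean CPM (Spearman rho = -0.43, a description over genes of the same libraries).

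RPS4X, of the abundant members, was at 573 to 684 CPM in WT and 739 to 759 CPM in mut (0.27 ± 0.06, adjusted p = 0.0041), and without WT solvent 27-1 the difference was 0.23 (adjusted p = 0.024). RPL19 (0.66 ± 0.14), also abundant, and RPS29 (0.63 ± 0.12), below 100 CPM, were higher and also kept their calls without that library, at 0.54 and 0.53. RPLP0 (0.39), RPS27A, a fusion with ubiquitin (0.43), RPL39 (0.39), RPL5 (0.26), RPL10 (0.32) and RPLP2 (0.39) were higher with all libraries. None of these 6 passed without it (limma-voom, adjusted p between 0.051 and 0.19). RPL13A (0.17), RPS6 (0.16), RPL3 (0.19), RPL22 (0.20), RPL11 (0.10) and RPS23 (0.04), which fell far in WT at 72 h, missed the threshold in solvent, with adjusted p between 0.10 and 0.75.

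Under TGFβ1 more members were called higher than lower in mut at each time. At 6 h, 61 members were higher in mut and 1 was lower (11.3% of all genes higher), and the lower one was RPS27L (-0.22 ± 0.07, adjusted p = 0.029). At 24 h, 54 were higher (24.7% of all genes), 28 under TMM factors (16.1%), 32 without mut 24 h 1-2 and 35 without WT 24 h 2-1. The clone pairs at 24 h gave medians of 0.31 and 0.12 against WT clone 27 and 0.49 and 0.32 against WT clone 2, for mut clones 1 and 65. For mut clone 65 against WT clone 27, the median of all genes was 0.11, so that this pair showed no difference particular to the family. At 72 h, 70 were higher (88.6%, against 26.0% of all genes), with medians of 0.46 and 0.10, and 59 under TMM factors (18.7%). Leaving out any 1 library left 57 to 72 members at 72 h. For 69 members the 4 mut libraries at 72 h all exceeded the 4 WT libraries (22.7% of all genes), and all 47 abundant members were called. By clone pair, the medians at 72 h were 0.29 and 0.37 against WT clone 27 and 0.55 and 0.62 against WT clone 2. The 4 states have different libraries, but each state compares the same 4 clones. Over them, 27 of 79 members were higher in mut at all 4 states (3.66% of all genes), and RPL36A, RPS10 and RPS26 were called at none.

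At 72 h RPS29 was at 20.6 to 25.3 CPM in mut against 9.35 to 13.4 CPM in WT (0.99 ± 0.15, adjusted p = 4.8e-06), the largest difference of the family. RPL39L came next with 0.89 ± 0.35 (adjusted p = 0.047). Its WT libraries were unequal, at 4.20, 4.46, 4.33 and 1.82 CPM in series 2-1, 2-2, 27-1 and 27-2, against 4.98, 5.22, 7.64 and 8.85 CPM in mut. The low value was that of 27-2, which was also the lowest in the other WT groups (2.66, 2.16 and 1.58 CPM). RPL13A was at 403, 415, 409 and 509 CPM in mut and 240 to 280 CPM in WT (0.72 ± 0.07, adjusted p = 2.2e-08), and RPS6 at 818 to 1013 CPM and 517 to 597 CPM (0.64 ± 0.07, adjusted p = 5.6e-08). In these 4 genes no WT library reached the lowest mut library.

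Whether the response to TGFβ1 itself differed between genotypes was tested as an interaction, taken as the change in mut less that in WT. At 6 h there were 0 such members (also 0 at an unadjusted p under 0.05, limma-voom, and 0 by edgeR and DESeq2) among 0.00673% of all genes with a higher value. At 24 h there were 2, RPL17 (0.45 ± 0.11, adjusted p = 0.012) and RPS23 (0.35 ± 0.09, adjusted p = 0.014), against 7.72% of all genes, and 4 with the series as a block. At 72 h, 18 members had a higher value of this difference than 0 and 0 a lower one, 22.8% of those tested against 9.40% of all genes, with medians of 0.16 and 0.10. Under TMM factors 6 passed the threshold (4.53% of all genes), with medians of 0.07 and 0.02. Without WT solvent 2-2 the count was 10. All 18 had fallen in WT at 72 h, and 7 of them also in mut. The interaction is computed from the same libraries as these falls, so the overlap is partly built in and is only a description. By series, the median change of the tested members at 72 h was -0.27, -0.26, -0.28 and -0.09 in mut 1-1, 1-2, 65-1 and 65-2. WT clone 27, at -0.10 and -0.24, lay within that range, while WT clone 2, at -0.60 and -0.65, lay below it. At the level of the family median, the larger fall in WT was therefore that of clone 2.

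The 18 members were RPL3, RPL5, RPL11, RPL13A, RPL14, RPL15, RPL17, RPL22, RPL28, RPL29, RPL35A, RPL41, RPS2, RPS4X, RPS6, RPS14, RPS23 and RPS27L, and 16 of them belonged to the abundant members. The list is complete, and some of its genes were named after their values were seen. RPL13A had an interaction of 0.56 ± 0.11 (adjusted p = 0.0011), RPS27L 0.56 ± 0.10 (adjusted p = 8.99e-04), RPS23 0.49 ± 0.09 (adjusted p = 8.6e-04) and RPS6 0.48 ± 0.10 (adjusted p = 0.0021). These 4 kept their calls under TMM factors, where they had 0.47, 0.47, 0.41 and 0.39. RPS27L is known as a target gene of p53. It fell in WT (40.5, 44.9, 40.0 and 44.3 CPM in solvent and 29.3, 28.4, 30.8 and 35.3 CPM at 72 h) and did not pass the test in mut. RPS29, which fell in both genotypes, had an interaction of 0.36 ± 0.19 that missed the threshold (adjusted p = 0.23).

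Members also moved relative to each other. When the counts of the 81 genes were taken as the library size, so that each gene was compared with the family total, 20 members were called in WT at 72 h, 12 higher and 8 lower (47.8% of all genes were called on this scale). With the geometric mean of the members in place of their sum, which is less weighted to abundant members, 4 were higher and 8 lower. RPS29 (-0.52 ± 0.11), RPL13A (-0.30 ± 0.06), RPL22 (-0.26 ± 0.08), RPL3 (-0.23 ± 0.07), RPS23 (-0.22 ± 0.07) and RPS6 (-0.20 ± 0.06) fell further than the total, and RPS10 (0.52 ± 0.19), RPL24 (0.44 ± 0.14), RPL31 (0.40 ± 0.12), RPS27A (0.24 ± 0.08) and RPL10 (0.22 ± 0.06) were higher relative to it. RPS10, RPL24, RPL31, RPS27A and RPL10 were each lowest of their group in WT solvent 27-1 (2.81, 19.3, 23.0, 106 and 200 CPM). This comparison was not repeated without that library. In mut at 72 h RPS29 (-0.40 ± 0.10) and RPL19 (-0.26 ± 0.09) fell further than the total, while RPS27L (0.32 ± 0.08) and RPL17 (0.29 ± 0.08) were higher relative to it.

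Between genotypes in solvent, 23 members differed relative to the total (36.0% of all genes), 18 higher and 5 lower in mut. Against the geometric mean the split was 12 higher and 11 lower. RPS27 (0.63 ± 0.17), RPL12 (0.61 ± 0.15) and RPS18 (0.57 ± 0.17) were highest, and RPL17 (-0.40 ± 0.08), RPS27L (-0.38 ± 0.08) and RPL35A (-0.21 ± 0.07) lowest. RPS27, RPL12 and RPS18 were lowest of their group in WT solvent 27-1 (3.98, 20.7 and 12.4 CPM). No fit relative to the total was made without that library. At 72 h there were 9, among which RPS29 (0.51 ± 0.11), RPL13A (0.24 ± 0.06) and RPS6 (0.15 ± 0.06) were higher, and RPS10 (-0.43 ± 0.19), RPS26 (-0.30 ± 0.13) and RPL17 (-0.28 ± 0.08) lower. Only RPL13A had an interaction relative to the total at 72 h (0.31 ± 0.09, adjusted p = 0.030, limma-voom), and with the geometric mean of the members in place of their sum there were 0 such members.

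Within groups the members varied together. The median correlation of their deviations from the group means, over the 3081 pairs of members and 32 libraries, was 0.69, and 96.4% of pairs were positive. These libraries share depth and preparation, and the value is a description. The within-group SD of the log2 values had a median of 0.15 over the members and 0.16 over all genes, and 22 members exceeded 0.2. It was larger for members with low mean CPM (Spearman rho = -0.75 across genes). The mean deviation over the members was lowest in WT solvent 27-1 (-0.28) and highest in WT solvent 2-2 (0.22), the 2 ends of the same group. What sets these deviations was not tested.

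Genes with related functions were taken from lists, whose counts stand against 38.4% of all genes lower in WT and 16.3% in mut at 72 h, 6.38% higher in mut in solvent and 26.0% at 72 h, and 9.40% with a higher interaction. Under TMM factors these shares were 23.3%, 9.91%, 6.68%, 18.7% and 4.53%. Of 7 ribosomal proteins and paralogs outside the naming rule, 6 fell in WT at 72 h (3 under TMM factors) and 1 in mut (1), and RACK1, a scaffold on the small subunit, had -0.50 and RPL22L1, the paralog of RPL22, -0.77. Between genotypes 1 of the 7 was higher in mut in solvent and 5 were at 72 h (3 under TMM factors). A higher interaction at 72 h was called for 3 of the 7 (2 under TMM factors). Of 19 translation factors and other genes known for TOP messengers, 19 fell in WT at 72 h (10 under TMM factors), 5 were higher in mut in solvent and 17 at 72 h, and 9 had an interaction at 72 h (4 under TMM factors). EEF2, the elongation factor of translocation, fell by 0.55, and EIF4B, a helicase cofactor, by 0.59 in WT. In mut at 72 h, 5 of these fell (1 under TMM factors).

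The mitochondrial ribosomal proteins, which belong to a separate ribosome and carry no shared subunit with the cytosolic one, gave a different count in solvent. Of 76 tested, 67 fell in WT at 72 h (60 under TMM factors) and 22 in mut (8 lower and 1 higher under TMM factors), with medians of -0.49 and -0.13. In solvent 2 were higher in mut (median -0.02), against 44 of 79 cytosolic members, and at 72 h 57 were higher. A higher interaction at 72 h was called for 48 of the 76 (25 under TMM factors, median 0.34 with library-size scaling), against 18 of 79 cytosolic members. The difference between the lists was not tested. Of 17 tested ribosome biogenesis genes, 16 fell in WT at 72 h, among them the nucleolar methyltransferase FBL (-0.79) and nucleolin (NCL, -0.65), 6 fell in mut, 1 was higher in mut in solvent and 13 at 72 h. Under TMM factors 16 fell in WT, and 3 fell and 1 rose in mut. Of 10 tested host genes of snoRNAs, 10 fell in WT at 72 h (8 under TMM factors) and 1 in mut (0 under TMM factors), 3 were higher in mut in solvent and 10 at 72 h. Many of these hosts are TOP genes without a protein product, and GAS5 fell by 0.71 in WT. Among 11 regulators of ribosomal protein synthesis, 9 fell in WT at 72 h (4 under TMM factors) and 4 in mut (3 under TMM factors), with LARP1 at -0.30, MTOR at -0.25 and MYC at -1.01 in WT. In solvent 1 of these was higher and 3 were lower in mut, and at 72 h 4 were higher and 1 lower. Higher interactions at 72 h were called for 10 biogenesis genes (5 under TMM factors), 3 host genes (1) and 4 regulators (3).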

How the data were processed

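RNA of 32 MCF10A libraries was prepared with a kit that keeps no strand and sequenced as read pairs. The authors trimmed reads with Trimmomatic, mapped them to GRCh38 with STAR and deposited raw counts per gene, with no normalization. Versions, the annotation release and the treatment of reads with several matches are not given in the sources used here. Library totals were 39702412 to 54651906 counts, and intervals for single counts would cover counting error only.

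Gene names, types and lengths came from GENCODE release 44 and start regions from RefSeq (GRCh38.p14), where 64 of the 81 members had an entry. The filterByExpr function (edgeR 4.0.16) removed low genes and kept 14865 genes and 79 members. It asked for 15 counts in total and for a CPM that equals 10 counts at the median library size. That CPM had to be reached in at least as many libraries as a group holds. The main test was limma-voom (limma 3.58.1, R 4.3.3) with library-size scaling over all 32 libraries, 1 mean per group, Benjamini-Hochberg adjustment over all 14865 genes and a threshold of 0.05. Log2 changes are given ± SE. Alternatives were TMM factors, edgeR's quasi-likelihood test, DESeq2 1.42.0, other filters, blocks, summed replications and leaving out each library or series. For the composition of the family, the summed count of the members replaced the library size. Adding pseudogene counts to the parent genes, joining TMM factors with the block, and the split at 100 CPM were chosen after seeing the data. The fits were tested on simulated data.

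The members and the gene lists were chosen with earlier results of these data known. Named genes were members with a role of their own and paralog pairs, and the 3 called members with the largest change each way in 5 comparisons (WT and mut at 72 h, mut against WT in solvent and at 72 h, and the interaction at 72 h), in level and relative to the family total. Genes named for their mean level, and complete lists of called genes, lie outside this rule.

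Libraries of a series share the clone by their labels. Deviations from the group means correlated within each series on average by at least 0.122 (mean 0.303), with a lowest value of 0.0283 for a single pair of libraries. The series was therefore used as a block in an alternative fit. No 2 libraries of a group agreed within sampling noise (chi-square over its degrees of freedom 12 or more). The study calls the replications of a condition independent biological replicates, while the labels do not say how they were separated, and p-values measure the spread between these libraries.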

Additional observations from a re-analysis of the deposited data

Results flagged for a closer look

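In 14 of 256 groups of 4 libraries, 1 library lay far from the other 3 (Dixon's criterion). That share is close to the 5% of groups that chance gives, so the flags are listed without further reading. The family share was 1.82% in mut 6 h 1-1, against 1.99% to 2.02% in the other libraries of its group. The same library had the distant values of RPL12 (60.5 CPM, against 76.2 to 79.6) and RPS6 (960 CPM, against 1017 to 1026).

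Mut 72 h 65-2 was high for RPL10 (281 CPM, against 235 to 243), RPL13A (509 CPM, against 403 to 415), RPL5 (219 CPM, against 181 to 186) and RPS4X (697 CPM, against 609 to 621). Mut 24 h 1-2 was high for RPL13A (492 CPM, against 427 to 435) and RPL17 (31.97 CPM, against 26.0 to 26.8). WT solvent 27-1 was low for RPL17 (29.5 CPM, against 34.8 to 35.2) and RPL24 (19.3 CPM, against 29.98 to 31.7).

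Single flags were RPL39L in WT 72 h 27-2 (1.82 CPM, against 4.20 to 4.46), RPS19 in mut solvent 65-1 (243 CPM, against 210 to 214) and RPS27 in WT 24 h 2-1 (7.04 CPM, against 10.7 to 10.9).

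The response to TGFβ1 differed between genotypes by the interaction test of limma-voom for 2 named members at 24 h, RPL17 (0.45) and RPS23 (0.35). At 72 h it differed for RPL13A (0.56), RPS27L (0.56), RPS23 (0.49), RPS6 (0.48), RPL22 (0.46), RPL3 (0.44), RPL35A (0.44), RPL17 (0.37), RPL11 (0.33), RPL5 (0.32) and RPS4X (0.28), each with a smaller fall or a higher value in mut. What these differences come from was not tested.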

How the results depend on the processing

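Of the alternative values beside those that leave out 1 library, 124 stayed close to the values reported and 48 moved. The median change of the members turned from -0.17 to 0.01 at 24 h in WT under TMM factors, by the construction of the scaling. Counts of called members at 24 h in WT were 3 with TMM factors, 3 with edgeR, 5 with DESeq2, 7 with TMM factors and the series block, and 19 with replications summed. At 72 h in WT they were 33, 34 and 32 with TMM factors, edgeR and DESeq2. In mut at 6 h, DESeq2 called 2, the series block 1, and TMM factors with the block 4. In mut at 24 h, TMM factors, edgeR, DESeq2, TMM factors with the block and summed replications called 0, the replication number as a block 2, the series block 9, and the fit without the series mut 1-2 called 5. In mut at 72 h the counts were 2 (TMM factors), 2 (edgeR), 3 (DESeq2), 8 (TMM factors with the block), 47 (series block), 4 (replications summed) and 7 (without the series mut 1-2). Mut against WT gave 20 in solvent with replications summed, and at 24 h 28, 29, 35, 34 and 32 with TMM factors, edgeR, DESeq2, summed replications and without the series mut 1-2. The interaction at 24 h gave 0 with TMM factors, edgeR or summed replications and 4 with the series block, and at 72 h 6, 6, 9 and 4 with TMM factors, edgeR, DESeq2 and summed replications. The block moved no other count by over 1.5 times. Relative to the geometric mean of the members, the counts were 12 (WT at 72 h), 4 (mut against WT at 72 h) and 0 (interaction at 72 h). With pseudogene counts added to their parents, an alternative chosen after seeing the data, the interaction of RPL13A relative to the family total was no longer called, and 1 other member was lower. Without the 10 most abundant other genes the family share was 1.49% and 1.26% in WT at 24 and 72 h and 1.96% and 2.07% in mut in solvent and at 6 h. RPL8 had 485 CPM per kb over the union of its exons. The cause of these shifts was not tested.

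Leaving out 1 library each gave ranges of 0 to 0 (WT 6 h), 20 to 42 (WT 24 h), 45 to 65 (WT 72 h), 0 to 1 (mut 6 h), 0 to 12 (mut 24 h), 6 to 33 (mut 72 h), 13 to 52 (mut against WT in solvent), 50 to 64 (6 h), 32 to 64 (24 h), 57 to 72 (72 h), 0 to 0 (interaction at 6 h), 2 to 3 (24 h) and 10 to 22 (72 h). For the named genes, 6381 values kept their side of the threshold, 262 lost and 53 gained a call, and 0 reversed. Levels of genes with processed copies are limited by read assignment, and members under 100 CPM by a larger spread.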
